A study of Drosophila melanogaster with 2 samples.

Results

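The 10 maltase genes of Drosophila melanogaster, Mal-A1 to Mal-A8 in one cluster and Mal-B1 and Mal-B2 in another, were examined for binding of sugarbabe (sug) by chromatin immunoprecipitation and sequencing (ChIP-seq). They were taken by name from the 13968 protein-coding genes of the Ensembl annotation, and every binding summit was collected from 5 kb before the first to 5 kb past the last gene of each cluster. These windows held 9 of the 9342 summits in the set that passed the authors' irreproducible discovery rate (IDR) threshold, 8 in the Mal-A window and 1 in the Mal-B window. The material was whole embryos of mixed sex, 8 to 24 hours old, from a transgenic line with eGFP fused to the C terminus of sug, and anti-GFP antibody was used for the precipitation. Both samples were biological replicates of this tagged line and formed 1 group (n = 2). Whether the line also keeps an untagged sug is not stated by the labels, and whole embryos do not show in which cell type a site was bound. The control was not analysed here. Depth is unknown, because the sources used here give no read counts, and so no interval is given. Besides the IDR set there were lists of 30000 summits for the pooled reads and for each replicate. The signal of a summit is the authors' own score and is read only within its list, by its rank (1 is the highest) and its percentile (the percentage of summits in the list at or below it). The IDR set had a median signal of 424 and a lowest signal of 224.

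Maltases are alpha-glucosidases, enzymes that split glucose from the ends of maltose, sucrose and related sugars, and in flies many are made by the midgut for digestion. The products enter cells through sugar transporters, and the carbohydrase genes of the fly midgut are known to be repressed on glucose-rich diets. The zinc finger protein sug is related to the GLI and GLIS factors, and its gene is known as a target of the sugar sensor Mondo and its partner bigmax. ChIP-seq measures where the tagged protein lay on chromatin and does not measure whether a gene was on or off.

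Binding in the Mal-A cluster lay over Mal-A1 to Mal-A5 and was not detected around Mal-A6, Mal-A7 and Mal-A8. The 8 genes stand side by side on arm 2R of dm6, in mixed orientation. The 34.3 kb window, 2R from 8444664 to 8478961, held 8 IDR summits in 8 separate intervals, or 2.33 per 10 kb against 0.752 per 10 kb over the arm. All 8 lay in the left 18.0 kb of the window (4.46 per 10 kb) and 0 in the right 16.3 kb, a division set by the last summit itself. The strongest did not lie at a promoter but between the 3 prime ends of Mal-A2 and Mal-A3, and the second lay between the starts of Mal-A3 and Mal-A4.

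**Figure D1:**
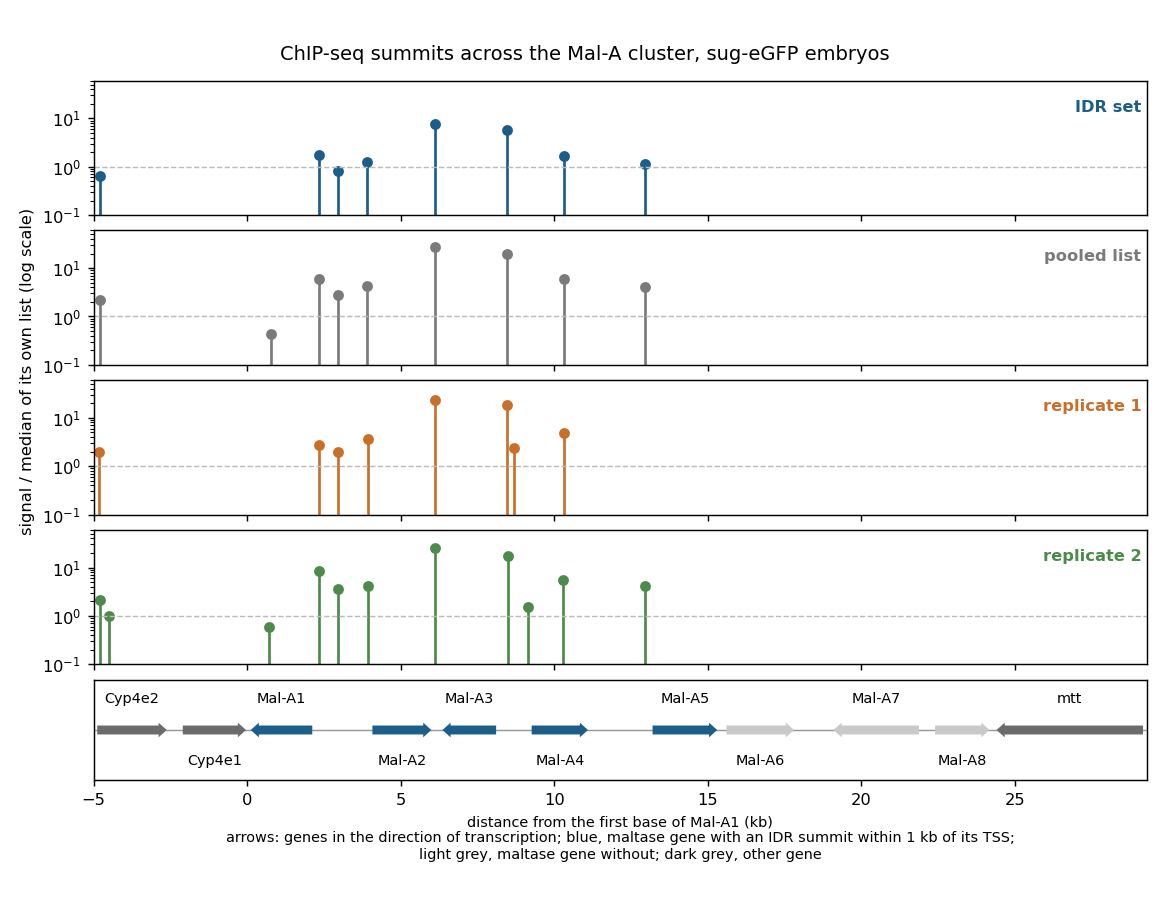
Summits of the IDR set, the pooled list and each replicate across the Mal-A window, against the distance from the first base of Mal-A1 in kb. Each stem is 1 summit, its height is the signal divided by the median of its own list on a log scale, the dashed line marks that median, and mir-986 within Cyp4e2 is not drawn. All 4 lists are empty from the summit before Mal-A5 to the right edge, and the tallest stem of each list stands between Mal-A2 and Mal-A3.

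Counted by promoters, 5 of the 10 maltase genes (50%) had an IDR summit at most 1 kb from a transcription start site (TSS), namely Mal-A1 to Mal-A5. Of all protein-coding genes 39.3% had one, so this share was near the background. Mal-A1, Mal-A2 and Mal-A5 had a summit of their own, with no TSS of another gene within 1 kb of it (3 of 10, 30.0%, against 17.0% of protein-coding genes). Mal-A3 and Mal-A4 had only a shared one (2 of 10, 20.0%, against 22.3%). Mal-A6, Mal-A7, Mal-A8 and Mal-B2 had no summit of any of the 4 lists within 2 kb of a TSS (4 of 10, 40.0%, against 33.2%). Among the 4671 IDR summits of higher signal, all 5 of Mal-A1 to Mal-A5 still had one at the promoter, while the share of all protein-coding genes was 24.3%. These 5 genes are neighbours and not independent, since Mal-A3 and Mal-A4 count the same summit. The Mal-A5 summit had no partner in replicate 1, and the difference was not tested. Among the genes with a promoter summit, the nearest one lay farthest from the TSS at Mal-A4, at 675 bp, and among those without, it lay closest at Mal-B1, at 1739 bp. The median distance from a TSS to the nearest IDR summit was 1207 bp over the 10 genes (quartiles 165 and 3989 bp) and 2794 bp over 13945 protein-coding genes (quartiles 164 and 12264 bp). The lower quartiles were alike, and the most distant maltase gene, Mal-A8 at 9338 bp, was closer than the upper quartile of the genome.

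**Figure D2:**
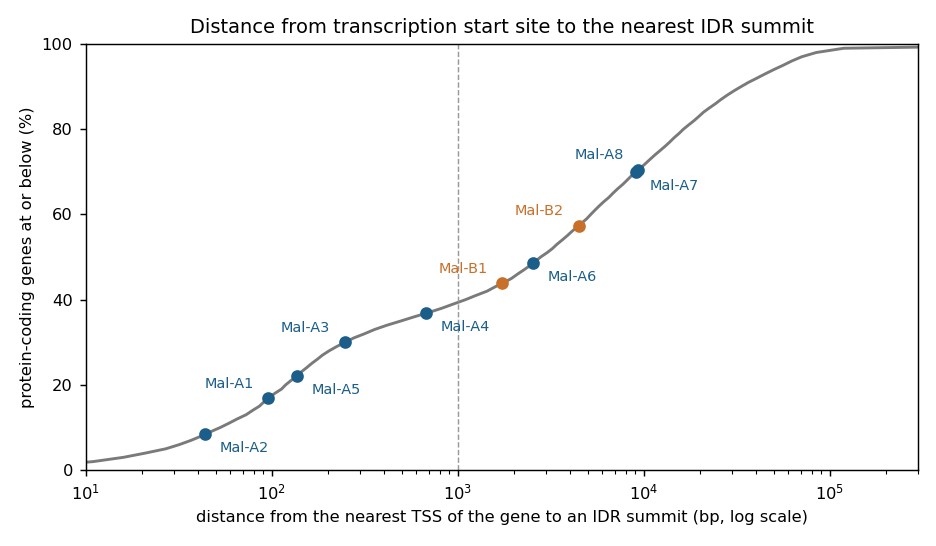
Percentage of protein-coding genes with an IDR summit at or below each distance from their nearest TSS (grey line, distance in bp on a log scale), with the 8 Mal-A genes in blue and the 2 Mal-B genes in orange placed on it. The dashed line marks 1 kb, and the 5 genes to its left run from Mal-A2 at 44 bp to Mal-A4 at 675 bp.

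Mal-A1 and Mal-A2 are transcribed away from each other across a gap of 1722 bp that held 3 IDR summits. Mal-A1 (FBgn0002570, 2R 8449664 to 8451904, minus strand) had a summit at 8452000, in intergenic sequence 96 bp upstream of its TSS. Its signal was 731 (rank 2137, percentile 77.1) in the IDR set, 213 (rank 5524) in replicate 1 and 520.3 (rank 1151) in replicate 2, so the replicates placed it far apart. The larger rank was 4.80 times the smaller, a ratio as large as or larger than that of 98.0% of the 8419 IDR summits with a partner within 100 bp in both replicates, whose median ratio was 1.49. Mal-A2 (FBgn0002569, 2R 8453627 to 8455782, plus strand) had a summit at 8453583, 44 bp upstream of its TSS, with a signal of 532 (rank 3438, percentile 63.2). In replicate 1 its signal was 280.0 (rank 3776) and in replicate 2 it was 248 (rank 3577), so the replicates ranked it nearly alike, with a ratio of 1.06. Between these promoter summits lay another at 8452638 that counted for both genes, 734 bp from the TSS of Mal-A1 and 989 bp from that of Mal-A2. It was the weakest of the 3, with a signal of 343 (rank 6043, percentile 35.3) and replicate ranks of 8527 and 4332. In replicate 2 that summit lay over 1 kb from the TSS of Mal-A2, so there it counted for Mal-A1 alone.

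The highest signal in either window was at 8455787, between Mal-A2 and Mal-A3, which end 126 bp apart and are transcribed towards each other. The summit lay 5 bp past the annotated 3 prime end of Mal-A2, with the nearest TSS, that of Mal-A3, 2105 bp away. Its interval, 8455385 to 8456047 (663 bp), covers the whole gap and reaches into both genes. The signal was 3308 in the IDR set (rank 145, percentile 98.5, and 7.80 times the median), 1800.1 in replicate 1 (rank 145) and 1515 in replicate 2 (rank 171). Both replicates placed it among their highest ranks and within 2 bp of the same base. Such a position was rare in the set: 131 of 9342 IDR summits (1.40%) lay within 200 bp of a gene's 3 prime end and over 1 kb from every TSS. Of these, 3 ranked 145 or higher, at CG7457 (signal 5476), at Vang, a planar cell polarity gene (signal 4523), and here, and the next was at dyl with a signal of 1783. By gene, Mal-A2 and Mal-A3 were 2 of 10 maltase genes (20.0%) with such a summit, against 0.859% of protein-coding genes, but 1 summit gave both, and this class was chosen after the summit had been seen.

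Mal-A3 (FBgn0002571, 2R 8455909 to 8457892, minus strand) and Mal-A4 (FBgn0033294, 2R 8458815 to 8460884, plus strand) start 922 bp apart and are transcribed away from each other. Their shared summit at 8458140 lay 248 bp upstream of Mal-A3 and 675 bp upstream of Mal-A4, in an interval of 771 bp, the widest of the 8. It ranked 258 in the IDR set (percentile 97.2), 240 in replicate 1 with a signal of 1375 and 321 in replicate 2 with a signal of 1073. The replicates also divided this region differently below the IDR threshold. Replicate 1 had a further summit at 8458351, 459 bp from the Mal-A3 TSS (signal 180.3, rank 6765). Replicate 2 had one at 8458820, 5 bp from the Mal-A4 TSS in its 5 prime UTR (signal 93.4, rank 10474). With the promoter distance set to 500 bp, the shared summit no longer counted for Mal-A4.

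Mal-A4 also had a summit inside its body, at 8459977 in a coding exon, 1162 bp downstream of the TSS. The signal was 717 (rank 2211, percentile 76.3), with 373 (rank 2473) in replicate 1 and 338 (rank 2280) in replicate 2, a rank ratio of 1.08. Replicates placed this site alike. Of all IDR summits 52 (0.557%) lay in a coding exon over 1 kb from every TSS, and 17 of these had a signal as high as this one or higher, itself included. This class was not planned, and its signal limit was taken from this summit. No other maltase gene had an IDR summit within its span.

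Mal-A5 (FBgn0050359, 2R 8462753 to 8465092, plus strand) had a summit at 8462616, 137 bp upstream of its TSS. Its signal was 493 (rank 3829, percentile 59.0) in the IDR set and 253 (rank 3485) in replicate 2, at the same base. Replicate 1 had no summit within 100 bp, and its nearest summit to the Mal-A5 TSS was 2778 bp away. A missing partner in replicate 1 was found for 445 IDR summits (4.76%). When the highest 9342 summits of replicate 1 alone were used, Mal-A5 had none and 4 maltase genes were counted. Of the replicate lists, only that of replicate 2 held this summit. Whether replicate 1 had reads there that were not called was not tested.

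**Figure D3:**
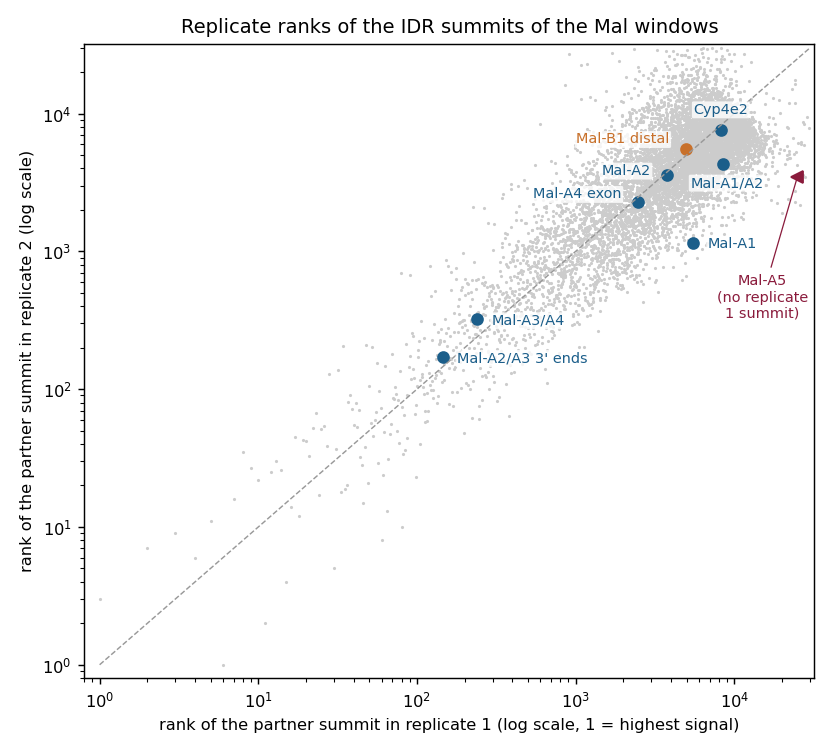
Rank of each IDR summit's partner in replicate 1 and in replicate 2, both on log axes with 1 the highest signal. Grey points are other IDR summits, blue points the Mal-A window, the orange point the Mal-B window, the red triangle at the right the Mal-A5 summit with its rank in replicate 2 only, and the dashed line equal ranks. The summits between Mal-A2 and Mal-A3 and between Mal-A3 and Mal-A4 sit at ranks of 145 to 321 in both replicates, and Mal-A1 lies off the line at 5524 and 1151.

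Past the Mal-A5 promoter the summits stopped. Mal-A6 (FBgn0050360, 2R 8465158 to 8467595, plus strand) begins 65 bp past the end of Mal-A5 and its TSS was 2542 bp from the nearest summit, that of Mal-A5. Mal-A7 (FBgn0033296, 2R 8468646 to 8471663, minus strand) and Mal-A8 (FBgn0033297, 2R 8471954 to 8473961, plus strand) start 290 bp apart and face away from each other, as Mal-A3 and Mal-A4 do, but their TSSs were 9047 and 9338 bp from the nearest summit of any list. After 8462616 the next summit in any of the 4 lists was at 8568483, near Cyp6a15Psi, a distance of 106 kb. On arm 2R 17 of 15882 gaps between neighbouring summits of the joined lists were as long or longer, and over all arms 84 of 86528 (0.0971%). A site called at slightly different bases in several lists adds short gaps there, which lowers these shares. The median gap of the joined lists on arm 2R was 109 bp. In the IDR set alone the gap was also 106 kb and 98.5% of the arm's gaps were as long or shorter, against a median of 2935 bp. The stretch holds the TSSs of 7 protein-coding genes, which are Mal-A5 at its edge, Mal-A6, Mal-A7, Mal-A8, mtt, CG12780 and Cyp6a14. It has 0 unresolved bases, and 2.30% of its 36-base words occur elsewhere in the genome, so nearly all of it is unique at that length. How a control would read there was not tested.

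The left edge of the window held a weaker summit that belongs to no maltase gene. It lay at 8444871 in a coding exon of Cyp4e2, a cytochrome P450 gene, 111 bp from the start of the microRNA gene mir-986 and 7033 bp from the TSS of Mal-A1. The annotated entries FBtr0304480_df_nrg and FBtr0472801_df_nrg also had a TSS within 1 kb of this summit. The signal was 270.3 (rank 7811, percentile 16.4), with replicate ranks of 8226 and 7590. Below the IDR threshold a faint summit lay in an intron of Mal-A1, at 8450440 in the pooled list (signal 52.1, rank 25775) and at 8450384 in replicate 2 (signal 35.2, rank 22718), with none in replicate 1. Of the 8 IDR summits, 7 had a partner in replicate 1 and 8 in replicate 2.

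Mal-B1 (FBgn0032381, 2L 11847226 to 11849169, plus strand) and Mal-B2 (FBgn0032382, 2L 11849958 to 11852881, plus strand) lie 788 bp apart, one behind the other, inside the phosphodiesterase gene Pde1c, which runs the other way. Neither had a promoter summit in the IDR set. The 15.7 kb window held 1 IDR summit, or 0.639 per 10 kb, close to the 0.717 per 10 kb of the arm. It lay at 11845487 in an intron of Pde1c, 1739 bp upstream of Mal-B1, the nearest TSS, and 4471 bp from Mal-B2. The signal was 400.2 (rank 5023, percentile 46.2), just under the median of the set. In replicate 1 the signal was 232 (rank 4955, summit 39 bp away) and in replicate 2 it was 177 (rank 5542, 1 bp away), so both replicates held it at a similar rank. A second summit of replicate 2 at 11845685 was closer to Mal-B1, at 1541 bp, but weak (signal 42.0, rank 19884).

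The bound stretch and the unbound starts of the Mal-B genes are shown because they are the sites where binding near Mal-B1 was and was not found. Letters are from the RefSeq copy of dm6, from 5 prime to 3 prime on the plus strand. The first is 100 bp on each side of the summit and the others are the 250 bases before each TSS. Capitals mark TATAAA on either strand, a core promoter word, and where matches on both strands overlap the run is longer.
Mal-B1 distal summit chr2L:11845387-11845587, plus strand: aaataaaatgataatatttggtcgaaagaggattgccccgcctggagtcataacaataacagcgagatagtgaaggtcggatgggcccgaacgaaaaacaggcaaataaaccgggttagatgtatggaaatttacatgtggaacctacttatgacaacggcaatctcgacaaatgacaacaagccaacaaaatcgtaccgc
Mal-B1 upstream of its TSS chr2L:11846976-11847225, plus strand: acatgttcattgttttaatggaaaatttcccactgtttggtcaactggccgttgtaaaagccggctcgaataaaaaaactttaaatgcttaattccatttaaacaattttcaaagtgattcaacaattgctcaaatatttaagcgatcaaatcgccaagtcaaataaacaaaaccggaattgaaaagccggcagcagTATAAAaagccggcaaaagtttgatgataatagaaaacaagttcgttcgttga
Mal-B2 upstream of its first TSS chr2L:11849708-11849957, plus strand: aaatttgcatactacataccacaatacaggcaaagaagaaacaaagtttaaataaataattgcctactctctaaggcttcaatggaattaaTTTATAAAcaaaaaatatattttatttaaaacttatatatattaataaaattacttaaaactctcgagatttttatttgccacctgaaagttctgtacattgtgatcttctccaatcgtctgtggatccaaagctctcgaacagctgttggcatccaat
Mal-B2 upstream of its second TSS chr2L:11850057-11850306, plus strand: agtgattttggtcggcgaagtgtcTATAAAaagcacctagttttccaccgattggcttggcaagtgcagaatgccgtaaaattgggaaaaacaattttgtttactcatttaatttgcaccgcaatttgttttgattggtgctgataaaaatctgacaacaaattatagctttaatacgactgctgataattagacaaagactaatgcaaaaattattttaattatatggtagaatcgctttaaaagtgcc

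In the promoter window of 250 bases before to 50 after the TSS, Mal-B1 had TATAAA at -53 and Mal-B2, at the first of its 2 TSSs, had it at -159 and -157, on opposite strands. The run before the second TSS of Mal-B2 holds it as well, near its left end. The Mal-B1 distal summit held none of the 8 words searched. TATAAA was in 26.7% of all IDR summit windows of 201 bp and in 45.8% of all promoters.

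**Figure D4:**
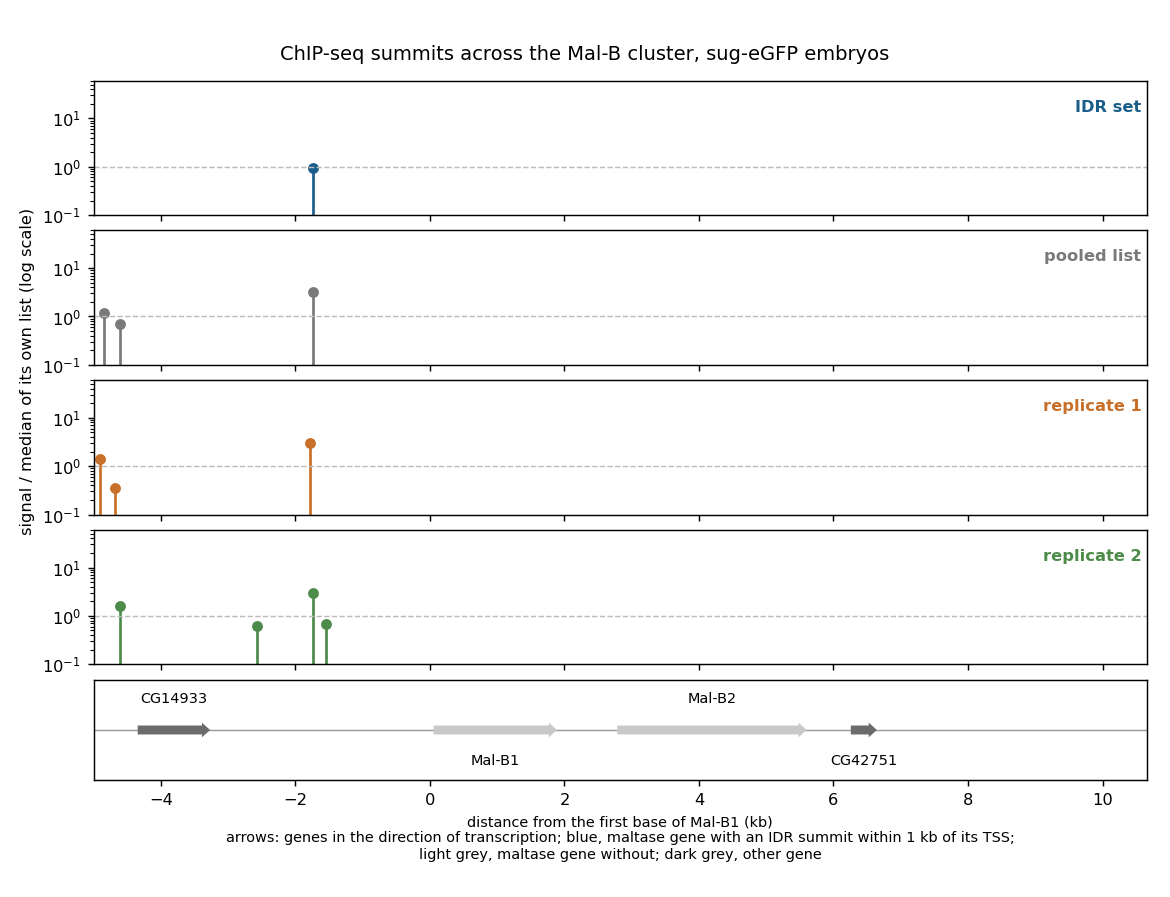
Summits of the same 4 lists across the Mal-B window, against the distance from the first base of Mal-B1 in kb, with signals divided by the median of each list on a log scale. The surrounding gene Pde1c and the small genes CG44008, CG46426 and CG42486 are not drawn. The only IDR stem stands upstream of Mal-B1 just under the median line, and no list has a stem over or right of either maltase gene.

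Left of the Mal-B genes, near the starts of CG44008 and CG14933, lay summits below the IDR threshold. The pooled list had them at 11842382 (signal 142, rank 13508) and 11842617 (signal 83.5, rank 19391). Replicate 1 had 2 there as well, of which the stronger had a signal of 107 (rank 11475), and replicate 2 had 1 with a signal of 96.3 (rank 10201). All of these were 4603 bp or more from the TSS of Mal-B1. A further weak summit of replicate 2 lay 2575 bp from it (signal 38.1, rank 21405).

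For 8 words, searched on both strands within 100 bp of each summit, the counts at the 9 IDR summits of the 2 windows are too small to be set apart from the shares over all IDR summits. A run of 6 cytosines (CCCCCC), found at 9.07% of IDR summits and 3.81% of windows 500 bp to their left, was present at 1 of the 9 summits, the one shared by Mal-A3 and Mal-A4, with its centre 43 bp from the summit. The longer form GACCCCCC, which contains CCCCCC, was at 0 of 9, against 0.728% of all IDR summits. The strongest summit, between Mal-A2 and Mal-A3, held neither, and of the 8 words only AGATAA was there, a GATA factor word found at 18.8% of IDR summits and 12.1% of the windows to their left. AGATAA was also at the summit between Mal-A1 and Mal-A2. GAGAGAG, the word of the factor Trl (5.06% of IDR summits), was at the summit of Mal-A3 and Mal-A4, 94 bp from it, and TATAAA was at the Mal-A1 summit. TGGGTGGTC (a GLI word, 0.182%), CACGTG (the E-box, its own reverse complement, 3.19%) and TATCGATA (the DREF word, also its own reverse complement, 3.76%) were at 0 of 9.

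Among the promoters, 7 of 10 held TATAAA, against 45.8% of all promoters. In Mal-A6 and Mal-A7 it began at -29, in Mal-A8 at -30 and in Mal-A1 at -26. The first 3 of these are genes without a summit, and Mal-A1 is the one bound maltase gene with the word near that position. Mal-A2 had it at -224, and Mal-A3, Mal-A4 and Mal-A5 had none. AGATAA was in 4 promoters (Mal-A4, Mal-A6, Mal-A7 and Mal-A8), against 18.6% of all promoters, and CCCCCC in 1, against 2.74% of all promoters. That was Mal-A6, at -40, which had no summit. A match of letters is a description and does not show that a factor binds.

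The bound sites lay within the range of the set in base composition, and their sequence was unique at the length checked. GC content of the 201 bp at the 8 Mal-A summits ran from 33.8% at Mal-A5 to 52.7% at Cyp4e2 and was 42.3% at the Mal-B summit. The IDR set had a median of 41.3%, with a 5th percentile of 27.4% and a 95th of 55.2%. At all 9 summits 0 of the 36-base words occurred elsewhere in the genome. Within the genes 8 of 10 had 0 as well, and Mal-A1 and Mal-A8 had 3 words each. Read length is not given in the sources used here.

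Likeness of the proteins and binding were set side by side as a description. Translations of the annotated coding sequences were 567 to 630 residues long, and identity over 45 pairs ran from 43.3% to 69.9% with a median of 47.8%. The most alike pair, Mal-A7 and Mal-A8 at 69.9%, had no summit at either start, and neither had Mal-B1 and Mal-B2 at 59.8%. Mal-A3 and Mal-A4, at 59.2%, were both bound, and Mal-A5 was most like Mal-A3 at 56.0%. Mal-A1, which had a promoter summit, was most like Mal-A8 at 49.9%, which had none. In 9 of 10 genes the most alike member had the same call, but these genes are also neighbours, and likeness cannot be told apart from position in the cluster.

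Of 16 other genes of sugar digestion and uptake, 9 (56.2%) had a promoter summit by the same 1 kb rule, against 39.3% of all protein-coding genes. The difference was not tested. Among the hydrolases it was 3 of 5, among the transporters 4 of 8, and among trehalose synthesis and hexokinase genes 2 of 3. The strongest of these promoter summits, at the hexokinase gene Hex-A, had a signal of 3263 and ranked 150, next to the 145 of the summit between Mal-A2 and Mal-A3. The transporter gene nebu had 5 promoter summits with a highest signal of 2135 (rank 338, replicate ranks 315 and 396). Treh, which encodes trehalase, had 4 with a highest signal of 1543 (rank 600), at a position shared with CG10527. Glut1, a glucose transporter gene, had 2 with a highest signal of 1791 (rank 462, replicate ranks 620 and 378). The glucosidase gene tobi had 1 with a signal of 1145 (rank 991), with a rank of 900 in replicate 2 and no partner in replicate 1, as at Mal-A5. The transporter gene sut1 had 1133 (rank 1015), shared with slv. Its replicate ranks were 2587 and 608, so it too was placed apart by the replicates. At the low end were Tps1, the trehalose synthesis gene, with 239.7 and no partner in either replicate, and the trehalose transporter gene Tret1-1 with 226. The Tps1 summit was shared with Psf2. Those without were Amy-d, Amyrel, Tret1-2, sut2, sut3, sut4 and Hex-C. As in the Mal-A cluster, neighbouring family members differed. Amy-p, an amylase gene, had a promoter summit with a signal of 1235 (rank 881), shared with asRNA:CR45272, and Amy-d none. Likewise sut1 had one while sut2, sut3 and sut4 had none. Whether sequence repeated elsewhere in the genome affects the calls at the genes of this list was not checked.

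**Figure D5:**
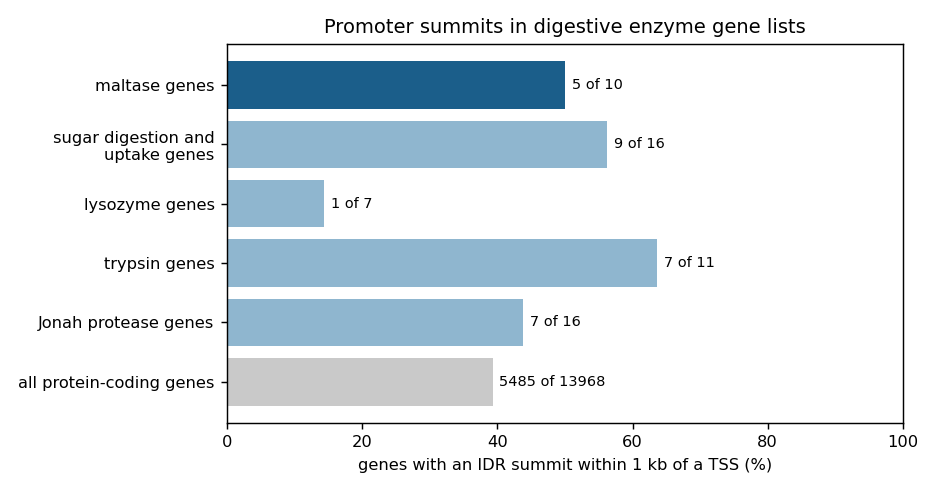
Percentage of genes whose TSS had an IDR summit at 1 kb or less, in the maltase genes (dark blue), in 4 other lists (light blue) and in all protein-coding genes (grey), with the counts at the bar ends. The maltase bar, 5 of 10, stands between the Jonah proteases at 7 of 16 and the sugar list at 9 of 16, and lysozyme genes are lowest at 1 of 7.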

How the data were processed

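Binding of sug-eGFP was measured by ChIP-seq with an anti-GFP antibody in 2 biological replicates of whole embryos, from chromatin fragments that the labels give as 200 to 800 bp. The text files the authors deposited beside their lists name dm6 as the assembly and say that peaks of each replicate and of the pooled reads were called with a control. The IDR set was derived from these lists. For the aligner and peak caller, nothing is given in the sources used here. The deposited signal is a score on the scale of its own list, so summits were compared by rank within a list. The deposited −log10 q-value is 4.38 in every IDR row near these genes and ranked nothing. The depth is unknown.

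Summit positions (1-based) were set against TSSs of Ensembl release 115, with transposable elements left out. The replicate partner of a summit was the nearest within 100 bp. A summit was shared when TSSs of more than 1 gene lay within 1 kb. With 1 group and 2 replicates there was no comparison between groups and no test. All 10 maltase genes, genes with a TSS within 1 kb of an IDR summit in the windows, and the listed sugar genes were named. The members and lists were chosen with earlier results of these data known. The class of summits at 3 prime ends, the 2 kb rule and the gap past Mal-A5 were chosen after the data were seen. The class of summits in coding exons was not planned either, and its signal limit was that of the Mal-A4 summit. Proteins were translated from the annotated coding sequence and aligned globally with BLOSUM62. Scripts were tested on simulated data. Python 3.11.15, numpy 2.4.6, pandas 2.3.3, Biopython 1.88 and matplotlib 3.10.9 were used.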

Additional observations from a re-analysis of the deposited data

How the results depend on the processing

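Of 53 alternative values 39 stayed within limits set around the main value and 14 moved. For counts the limit was a ratio to the main value, and for percentages and percentiles a 95% binomial interval around it. That interval treats genes or summits as independent and does not measure variation between replicates, so small shifts can be labelled as moved. No other label could be given, so a reversal was not looked for. The count of maltase genes with a promoter summit was 4 at 500 bp (Mal-A4 lost), 6 at 2 kb (Mal-B1 added), 5 within gene spans, in the 4671 IDR summits of higher signal (the stricter set) and in the pooled list, and 4 to 5 when 1 replicate was left out (Mal-A5 lost without replicate 2). Genes sharing a promoter summit, 4 in the main setting, were 0 at 500 bp, 2 in the stricter set (Mal-A3 and Mal-A4), and 2 to 4 when 1 replicate was left out (2 without replicate 1). The background of 39.3% was 35.0% at 500 bp, 45.3% at 2 kb, 41.2% with gene spans, 24.3% in the stricter set, 54.5% in the pooled list, and 37.4% to 40.1% when 1 replicate was left out. The Mal-B window held 0 summits of the stricter set and 3 of the pooled list. The Mal-A window held 6 to 9 under its alternatives, and the sugar list had 7 to 10 genes. The highest Mal-A percentile was 96.9 in the stricter set, and the Mal-B percentile was 40.7 without replicate 1. The percentile of 96.9 belongs to the same summit, ranked among fewer. By definition the background can only rise with a longer distance or a larger list that holds the IDR set, and only fall in the stricter set. The cause of the other moves was not tested. Leaving out a replicate means using the highest 9342 summits of the other list. No paired analysis was possible because there was 1 group. The unknown depth limits every absence: a site without a summit was not called in these lists.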

Other observations

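Other families of digestive enzyme genes also held both genes with and genes without a promoter summit, a mix that the 39.3% of all protein-coding genes with one would give too. Of 11 trypsin genes 7 had a promoter summit (IDR set, 1 kb rule), from 6 summits, since epsilonTry shared one with alphaTry and another with betaTry. Their signals were all modest: the highest was 474 at etaTry (percentile 56.8), and zetaTry was lowest at 227. Of 16 Jonah protease genes 7 had one, with the highest signals at Jon25Biii (914, percentile 84.2) and Jon65Aiv (813, percentile 80.7). Of 7 lysozyme genes 1 had one, LysE, with a signal of 244 (percentile 7.65). In none of these 3 families did a promoter summit reach the signal of 2402 at the shared start of Mal-A3 and Mal-A4. The other maltase promoter summits, with signals of 343 to 731, were weaker than those of Jon25Biii and Jon65Aiv. Many members of these families are neighbours and so are not independent, and the differences between lists were not tested. Repeated sequence was not checked in these families.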
